A study of Homo sapiens with 12 samples.

Results

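Expression of 10 genes of the antioxidant defence and of glutathione synthesis was examined in SK-N-Be(2)C cells, an established human neuroblastoma line, as they were made resistant to doxorubicin with or without vorinostat. The genes were NFE2L2, GCLC, GCLM, SLC7A11, GPX4, SOD1, SOD2, CAT, TXN and TXNRD1, and every probe that the platform annotation gives to one of these symbols was taken. The 10 genes had 18 probes of the 47323 on the Illumina HumanHT-12 v4 BeadChip, and 15 of these probes were tested among 21730. A gene was represented by its brightest probe, which gave 9 measured genes of 12138. SLC7A11 was the gene without a measurement.

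The arrays formed 4 groups of 3. DoxR-v cells had been carried through stepwise increases of doxorubicin with a short exposure to SAHA (vorinostat, a histone deacetylase inhibitor) at each logarithmic step, and DoxR cells through the same steps without it. WT-v cells were wild type cells that received only the intermittent SAHA, and WT cells were the parental line. DoxR and DoxR-v cells were selected in parallel as separate lines, so an effect of vorinostat and an effect of separate selection cannot be told apart. The labels number 3 specimens a group but do not say that they came from separate cultures, so the p-values measure the spread between these specimens, which may be technical.

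Cells meet superoxide and peroxides with linked enzymes. Superoxide dismutases turn superoxide into hydrogen peroxide, which catalase, the peroxiredoxins and the glutathione peroxidases remove. Glutathione is built from cysteine, which enters the cell as cystine through the SLC7A11 transporter, in a first step run by glutamate-cysteine ligase and a second run by glutathione synthetase. The transcription factor NFE2L2 (NRF2) is held at a low level by KEAP1 and, when released, acts on genes that carry an antioxidant response element. Doxorubicin, an anthracycline, can cycle between redox states and give rise to superoxide.

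The stretches before the transcription start were read from the RefSeq promoter table (GRCh38.p14), in which 8 of the 10 genes had at least 1 entry and SOD1 and SLC7A11 were not found. The core of the antioxidant response element was searched as TGACNNNGC on both strands in the 250 bases before each start. It was present in 3 of the 15 promoters of these genes, namely 1 of GCLM and 2 of TXNRD1, against 10.9% of all 35116 promoters. The windows below show these matches, with the 9 matching bases in capitals and the sequence given 5′ to 3′ on the strand of the gene.
GCLM, chr1:93909446-93909474, minus strand: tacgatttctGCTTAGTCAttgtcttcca
TXNRD1 upstream start, chr12:104215670-104215698, plus strand: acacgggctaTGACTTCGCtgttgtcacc
TXNRD1 downstream start, chr12:104286920-104286948, plus strand: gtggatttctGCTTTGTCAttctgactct

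The GC box, searched as GGGCGG on both strands, was present in 14 of the 15 promoters of these genes, against 42.6% of all promoters, and CCAAT in 8 of the 15, against 32.0%. Some genes gave several of the 15 promoters, and windows of GPX4 overlap, so that a site can count more than once. By gene, the GC box was present for 7 of the 8 genes with a promoter entry and CCAAT for 5 of the 8. AP1 sites (TGANTCA) and E boxes (CACGTG) were found in 0 of the 15, against 6.57% and 6.34% of all promoters. The promoters of the most upstream starts of GPX4 and NFE2L2 are shown because these genes had the clearest differences from WT cells, with the GC boxes in capitals. Neither held the response element core in this window. A match is a description of letters, and the arrays hold no measurement of binding.
GPX4, chr19:1103744-1103993, plus strand: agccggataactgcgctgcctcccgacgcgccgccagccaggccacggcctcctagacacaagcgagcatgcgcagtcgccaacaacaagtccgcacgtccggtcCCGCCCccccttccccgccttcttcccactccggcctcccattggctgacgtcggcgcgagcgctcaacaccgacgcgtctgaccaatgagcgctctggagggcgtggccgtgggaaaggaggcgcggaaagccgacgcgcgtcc
NFE2L2, chr2:177264728-177264977, minus strand: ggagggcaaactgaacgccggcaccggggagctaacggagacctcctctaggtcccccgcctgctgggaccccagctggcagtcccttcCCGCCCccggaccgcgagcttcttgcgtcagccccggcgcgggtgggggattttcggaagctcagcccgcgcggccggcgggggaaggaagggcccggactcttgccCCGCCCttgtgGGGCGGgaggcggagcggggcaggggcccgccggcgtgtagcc

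The median probe signal of an array lay between 98.7 and 125, and 31.3 to 36.5% of probes were detected. Arrays of the same group correlated at r = 0.981 to 0.993 over the tested probes, and arrays of different groups at 0.938 to 0.972. Of 10 neuroblastoma markers, 8 had a probe and 7 were detected on all 12 arrays. The exception, TH, was detected on 9 arrays and averaged log2 13.40 in DoxR-v, 4.46 in DoxR, 13.39 in WT-v and 7.82 in WT cells. DBH was also lowest in DoxR cells, at 13.13, 8.83, 12.24 and 12.92 in the same order. HAND2 was lower in both resistant groups, at 9.99, 10.37, 11.36 and 11.62. PHOX2A and ISL1 were instead highest in DoxR cells, at 10.31 and 12.93. GATA3 averaged between 9.05 and 9.67, CHGA between 13.83 and 14.64 and MYCN between 14.5 and 14.8. Of 7 blood cell markers, 6 had a probe and 0 were detected on all arrays, with PTPRC, CD3E and HBB detected on none. CD14 was detected on 11 arrays and averaged log2 5.67 in DoxR-v, 5.77 in DoxR, 5.95 in WT-v and 7.32 in WT cells. The summed signal of the blood cell markers was log2 7.59 to 7.70 in DoxR-v, 7.48 to 7.81 in DoxR, 7.56 to 7.66 in WT-v and 7.95 to 8.44 in WT cells, highest in WT cells. Of 7 mesenchymal markers, all with a probe, 3 were detected on all arrays and COL1A2 on none. The summed signal of the mesenchymal markers was log2 13.05 to 13.55 in DoxR-v cells, 11.40 to 11.46 in DoxR cells, 12.68 to 12.74 in WT-v cells and 12.30 to 12.54 in WT cells, so that it was lowest in DoxR cells. These markers did not move together. DCN averaged 11.88 in DoxR-v, 7.22 in DoxR, 11.50 in WT-v and 10.52 in WT cells, and LUM 11.98, 7.12, 10.15 and 9.20 in the same order, both lowest in DoxR cells. COL3A1, detected on 6 arrays, was highest in DoxR cells, at 4.83 in DoxR-v, 7.68 in DoxR, 6.73 in WT-v and 4.57 in WT cells, and THY1 averaged between 10.77 and 11.34 in all groups. PDGFRB, detected on 11 arrays, was lower in both resistant groups, at 6.9 in DoxR-v, 5.61 in DoxR, 9.6 in WT-v and 9.29 in WT cells. The summed signal of the neuroblastoma markers was 16.11 to 16.39 in DoxR-v, 15.52 to 15.67 in DoxR, 16.10 to 16.20 in WT-v and 15.80 to 16.26 in WT cells. The part of these marker differences in the results on the 10 genes was not tested.

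Signals are given as log2 of the background-corrected and quantile normalized intensity, and a difference of 1 on this scale is a doubling. A gene was called higher or lower at a Benjamini-Hochberg adjusted p under 0.1 in limma, over all probes, together with a fold over 1.5 (log2 0.585). In DoxR cells GPX4 and NFE2L2 rose and SOD2 fell relative to WT cells, which is 3 of 9 measured genes, whereas 33.7% of all genes were called in this comparison. In DoxR-v cells GPX4 and NFE2L2 rose relative to WT, 2 of 9 against 25.9% of all genes. In WT-v cells GPX4 rose, 1 of 9 against 27.1%. In DoxR-v against DoxR cells GCLC fell, 1 of 9 against 29.1%. In DoxR-v against WT-v cells limma called 0 of 9, against 25.4% of all genes, and 2 of the 9, GCLC and SOD1, had an unadjusted p under 0.05. A second CAT probe was called in that comparison. None of these counts was above the share of all genes with the values as reported. Under some other treatments of the values, given at the end, counts in DoxR and DoxR-v cells were above it.

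**Figure D1:**
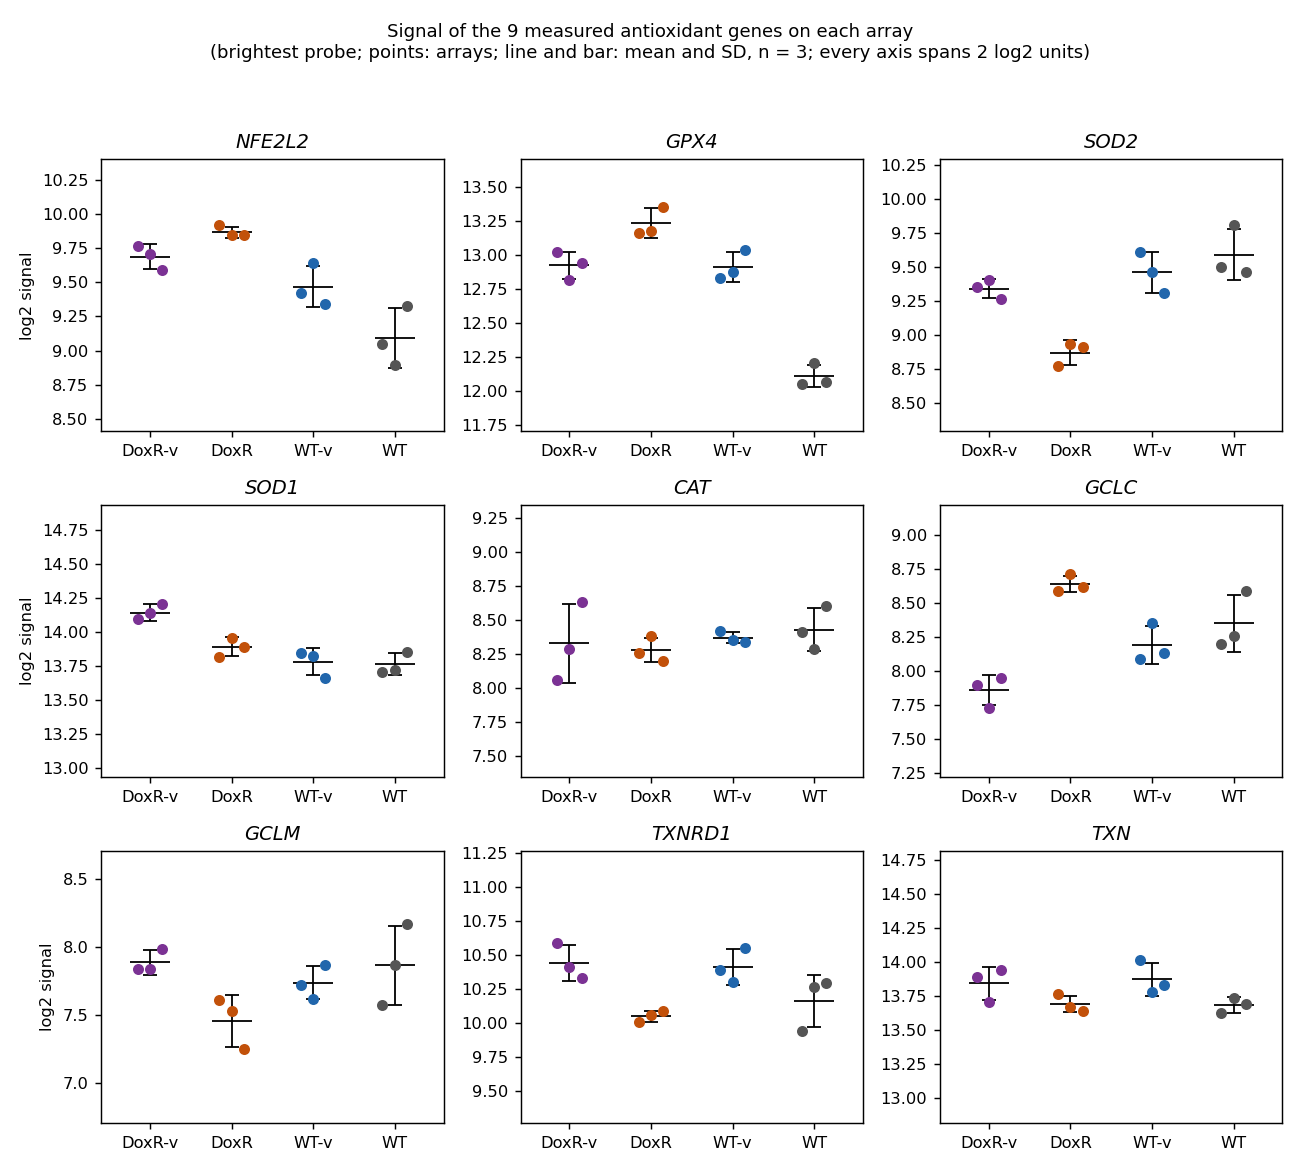
Log2 signal (y axis) of the brightest probe of each of the 9 measured genes on the arrays of the DoxR-v, DoxR, WT-v and WT groups (x axis), with points for single arrays and a line and bar for the mean and SD of 3. GPX4 lies above the WT arrays in all 3 other groups, SOD2 is lowest in DoxR cells and GCLC is lowest in DoxR-v cells.

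The median difference of the 9 genes was log2 0.01 in DoxR, 0.17 in DoxR-v and 0.02 in WT-v cells relative to WT, beside 0.01, 0.02 and 0.03 for all genes. It was 0.16 for DoxR-v against DoxR and 0.01 for DoxR-v against WT-v, beside 0 and -0.03 for all genes. The 3 DoxR arrays and the 3 WT arrays did not overlap for 3 of the 9 genes, against 54.7% of all genes. For DoxR-v against WT this held for 6 of 9, against 45% of all genes, and for WT-v against WT for 4 of 9, against 44.1%. For DoxR-v against DoxR it held for 7 of 9, against 54.9%, and for DoxR-v against WT-v for 2 of 9, against 46.3%. As these are bulk cultures, fewer cells of a type and less RNA per cell cannot be told apart.

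NFE2L2 encodes the transcription factor that drives much of the antioxidant programme, and it was measured by a single probe (ILMN_1790909). Its log2 signal was 9.77, 9.71 and 9.59 in DoxR-v cells, 9.92, 9.85 and 9.85 in DoxR cells, 9.42, 9.64 and 9.34 in WT-v cells, and 9.05, 8.89 and 9.33 in WT cells. All arrays of the drug-exposed groups were above the WT arrays, although the lowest WT-v array exceeded the highest WT array by a narrow margin. DoxR arrays were above all DoxR-v arrays, and DoxR-v and WT-v arrays overlapped.

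NFE2L2 rose in DoxR cells by log2 0.78 ± 0.14 (SE, n = 3 arrays a group; limma, adjusted p = 0.000868) and in DoxR-v cells by 0.60 ± 0.14 (adjusted p = 0.00723). In WT-v cells the difference from WT was 0.38 ± 0.14 (adjusted p = 0.063), which is below the fold limit. Between DoxR-v and DoxR cells it was -0.18, with a 95% interval of -0.49 to 0.13. The call in DoxR-v cells lay at the fold limit and was lost with the deposited normalized values (log2 0.50), without background correction (0.53) and with an offset of 50 (0.57). It was also lost without WT replicate 1 (0.58), WT replicate 2 (0.50) or DoxR-v replicate 1 (0.56), with adjusted p values for NFE2L2 of 0.0256, 0.0339 and 0.0317. With median scaling NFE2L2 was also called in WT-v cells (log2 0.68, adjusted p = 0.022).

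The regulators and partners of NFE2L2 differed among themselves. Of 12 such genes, 10 were measured, and 1 was higher and 2 lower in DoxR cells, 0 and 2 in DoxR-v cells, and 0 and 1 in WT-v cells. Their median difference from WT was log2 -0.23 in DoxR, -0.11 in DoxR-v and -0.03 in WT-v cells. The share of them called was 30%, 20% and 10% in this order, below the 33.7%, 25.9% and 27.1% of all genes. KEAP1, the adaptor that marks NFE2L2 for degradation, had log2 signals of 9.50, 9.37 and 9.15 in DoxR-v cells, 10.36, 10.25 and 10.16 in DoxR cells, 9.76, 9.33 and 9.92 in WT-v cells, and 8.97, 8.91 and 9.40 in WT cells. DoxR arrays were above all other arrays. KEAP1 rose in DoxR cells by 1.16 (adjusted p = 0.000259), and a second probe rose by 0.98. Between DoxR-v and DoxR cells it fell by log2 0.92 (adjusted p = 0.00175), and its difference from WT in DoxR-v cells was 0.25 (adjusted p = 0.341).

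NFE2L1, a relative of NFE2L2 that binds similar elements, fell in DoxR cells by 1.33 (adjusted p = 2.27e-05) and rose in DoxR-v relative to DoxR cells by 1.25 (adjusted p = 4.36e-05). RBX1, a subunit of the ligase that works with KEAP1, changed in DoxR cells by -0.60 (adjusted p = 0.00221), at the fold limit. This RBX1 call was lost without WT replicate 2 (-0.56), DoxR replicate 1 (-0.54) or DoxR replicate 2 (-0.58). SQSTM1, an autophagy receptor that can bind KEAP1, changed by log2 -0.96 in DoxR-v cells (adjusted p = 0.000134) and by -0.91 in WT-v cells (adjusted p = 0.000236) relative to WT. DPP3, another protein that binds KEAP1, changed by -0.71 in DoxR-v cells (adjusted p = 0.00211), but its other probes were not called, at -0.19 and -0.44, and neither was DPP3 with the deposited values (-0.37) or median scaling (-0.31). Relative to DoxR cells every tested DPP3 probe was called lower in DoxR-v cells (-0.69, -0.85 and -0.97), and likewise relative to WT-v cells (-0.7, -1 and -0.97).

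Other known NFE2L2 target genes were measured for 11 of 13. Of these, 3 were higher and 2 lower in DoxR cells, 4 and 0 in DoxR-v cells, and 3 and 1 in WT-v cells, and their median difference from WT was log2 0.05 in DoxR, 0.50 in DoxR-v and 0.25 in WT-v cells. The share called was 45.5%, 36.4% and 36.4% in this order, beside 33.7%, 25.9% and 27.1% of all genes. NQO1, a quinone reductase, had log2 signals of 10.23, 9.99 and 10.20 in DoxR-v cells, 9.80, 9.90 and 9.72 in DoxR cells, 9.08, 9.07 and 8.90 in WT-v cells, and 8.29, 8.55 and 8.51 in WT cells. The 4 groups did not overlap, with DoxR-v highest and WT lowest. NQO1 rose by 1.69 in DoxR-v cells (adjusted p = 1.48e-06) and by 1.35 in DoxR cells (adjusted p = 5.39e-06), and in WT-v cells the difference was 0.56 (adjusted p = 0.00671), below the fold limit.

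HMOX1, heme oxygenase, had log2 signals of 7.51, 6.95 and 7.64 in DoxR-v cells, 4.84, 5.42 and 4.82 in DoxR cells, 5.74, 5.96 and 6.03 in WT-v cells, and 5.16, 5.03 and 5.57 in WT cells. It was not above background on any DoxR or WT array, so a fold is given as a bound, computed from the lowest detected signal of each array of the undetected group. HMOX1 was at least 3.31-fold higher in DoxR-v than in WT cells (adjusted p = 1.61e-05) and at least 3.77-fold higher than in DoxR cells (adjusted p = 3.75e-06). WT-v cells were also called higher than WT for HMOX1 (adjusted p = 0.0369). EPHX1, an epoxide hydrolase, rose by 1.13 in DoxR-v cells (adjusted p = 0.000221; with the deposited values EPHX1 was at 0.46 and not called). EPHX1 was also called higher in DoxR cells, by 0.95 (adjusted p = 0.000473). In DoxR cells UGDH, which makes UDP-glucuronate, rose by 1.01 (adjusted p = 0.000586), and ME1, malic enzyme and a source of NADPH, changed by -0.99 (adjusted p = 0.000228). In WT-v cells IDH1, also a source of NADPH, rose by 0.74 (adjusted p = 0.00192), and TKT, transketolase, rose by 0.67 (adjusted p = 0.021), a TKT call lost without WT replicate 2 (0.57) or WT-v replicate 3 (0.52).

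GCLC encodes the catalytic subunit of glutamate-cysteine ligase (ILMN_1730575). Its log2 signal was 7.90, 7.73 and 7.95 in DoxR-v cells, 8.59, 8.71 and 8.62 in DoxR cells, 8.09, 8.35 and 8.13 in WT-v cells, and 8.20, 8.26 and 8.59 in WT cells. DoxR-v arrays were below every other array, DoxR arrays met the highest WT array, and WT-v and WT arrays overlapped. GCLC fell in DoxR-v relative to DoxR cells by log2 0.78 ± 0.14 (SE, n = 3; limma, adjusted p = 0.000927). Against WT its difference was -0.49 in DoxR-v cells (adjusted p = 0.0206, below the fold limit) and 0.29 in DoxR cells (adjusted p = 0.13). The GCLC call between DoxR-v and DoxR cells was lost with the deposited normalized values (-0.54, adjusted p = 0.000138), and with median scaling GCLC was called higher in DoxR than in WT cells (0.62, adjusted p = 0.031).

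GCLM encodes the modifier subunit of the same enzyme (ILMN_1788547). It had log2 signals of 7.84, 7.84 and 7.99 in DoxR-v cells, 7.61, 7.53 and 7.25 in DoxR cells, 7.72, 7.62 and 7.87 in WT-v cells, and 7.58, 7.87 and 8.17 in WT cells. DoxR-v arrays were above all DoxR arrays, and the WT arrays overlapped every other group. GCLM passed no comparison: relative to WT the difference was 0.02 in DoxR-v, -0.41 in DoxR (adjusted p = 0.0674) and -0.14 in WT-v cells, and between DoxR-v and DoxR cells it was 0.43 (adjusted p = 0.0648). The 2 subunits thus lay on opposite sides between DoxR-v and DoxR cells, GCLC lower and GCLM with a positive difference below the fold limit, a contrast that was not itself tested. A second GCLM probe was detected on 2 of 12 arrays and was not called, and a second GCLC probe was detected on none.

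SLC7A11, the cystine transporter, had 1 probe (ILMN_1655229), and it was detected on 0 of 12 arrays. Its log2 signal was 4.35 to 4.56 in DoxR-v, 4.39 to 4.58 in DoxR, 4.61 to 5.10 in WT-v and 4.48 to 4.68 in WT cells. These values are at background, so no level and no fold can be given for SLC7A11. Without the detection filter SLC7A11 was called in no comparison, with differences between -0.33 and 0.23 among the pairs of groups.

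Other genes of glutathione supply and turnover were measured for 11 of 14. Relative to WT, 3 were higher in DoxR, 5 in DoxR-v and 3 in WT-v cells, and 0 were lower in any of these groups. Their median difference from WT was log2 0.07 in DoxR, 0.53 in DoxR-v and 0.42 in WT-v cells, and 0.07, 0.53 and 0.37 when a gene below background in 1 group was put at its bound. The share called was 27.3%, 45.5% and 27.3% in this order, beside 33.7%, 25.9% and 27.1% of all genes. GSS, glutathione synthetase, had log2 signals of 9.57, 9.35 and 9.49 in DoxR-v cells, 8.32, 8.29 and 8.38 in DoxR cells, 8.85, 8.74 and 9.01 in WT-v cells, and 8.50, 8.58 and 8.22 in WT cells. DoxR-v arrays were above all others, and DoxR and WT arrays overlapped. GSS rose in DoxR-v relative to DoxR cells by 1.14 (adjusted p = 3.63e-05) and relative to WT by 1.04 (adjusted p = 0.000135).

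CHAC2, which degrades glutathione, rose by 1.54 in DoxR-v cells (adjusted p = 4.84e-05) and by 1.14 in DoxR cells (adjusted p = 0.000301), where the CHAC2 call was lost with the deposited values (0.58). CBS, which makes cystathionine on the way to cysteine, rose by 0.71 in DoxR, 0.75 in DoxR-v and 0.85 in WT-v cells (adjusted p = 0.00209, 0.00218 and 0.000977). CTH, which releases cysteine from cystathionine, rose by 0.96 in WT-v cells (adjusted p = 0.006), but CTH was at 0.30 with the deposited values and 0.40 without background correction, and its other probes were not called. In DoxR-v cells CTH was also called, again on its brightest probe alone (0.67, adjusted p = 0.0394). GGT7, of the gamma-glutamyltransferase family, was below background in WT cells and at least 1.54-fold higher in DoxR-v cells (adjusted p = 0.00515), a GGT7 call lost with the deposited values (0.34) and without background correction (0.46). GGT7 was also called higher than WT in DoxR and WT-v cells (adjusted p = 0.0388 and 0.0437). In DoxR cells its bound was at least 1.17-fold, which is below the fold limit. GGCT, which cyclises gamma-glutamyl peptides, rose in DoxR-v relative to DoxR cells by 0.77 (adjusted p = 0.000398).

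GPX4, the glutathione peroxidase that reduces lipid hydroperoxides in membranes, had the largest differences from WT of the 9 genes. On its brightest probe (ILMN_2378952) the log2 signal was 13.02, 12.81 and 12.94 in DoxR-v cells, 13.16, 13.17 and 13.35 in DoxR cells, 12.83, 12.87 and 13.03 in WT-v cells, and 12.05, 12.20 and 12.06 in WT cells. All 9 arrays of the drug-exposed groups were above the WT arrays. DoxR arrays were above all others, and DoxR-v and WT-v arrays overlapped.

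GPX4 rose by log2 1.12 ± 0.13 in DoxR cells (SE, n = 3; 2.17-fold; limma, adjusted p = 2e-05), by 0.82 ± 0.13 in DoxR-v cells (1.76-fold; adjusted p = 0.000434) and by 0.81 ± 0.13 in WT-v cells (1.75-fold; adjusted p = 0.000533). Between DoxR-v and WT-v cells the difference was 0.01, with a 95% interval of -0.26 to 0.29. Between DoxR-v and DoxR cells it was -0.30 (adjusted p = 0.0939), below the fold limit. A second probe (ILMN_1734353) rose by 1.09 in DoxR, 0.63 in DoxR-v and 0.89 in WT-v cells (adjusted p = 0.000153, 0.00988 and 0.0012). Its call in DoxR-v cells was lost without WT replicate 3 (GPX4 second probe at 0.49) or DoxR-v replicate 1 (0.55).

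**Figure D2:**
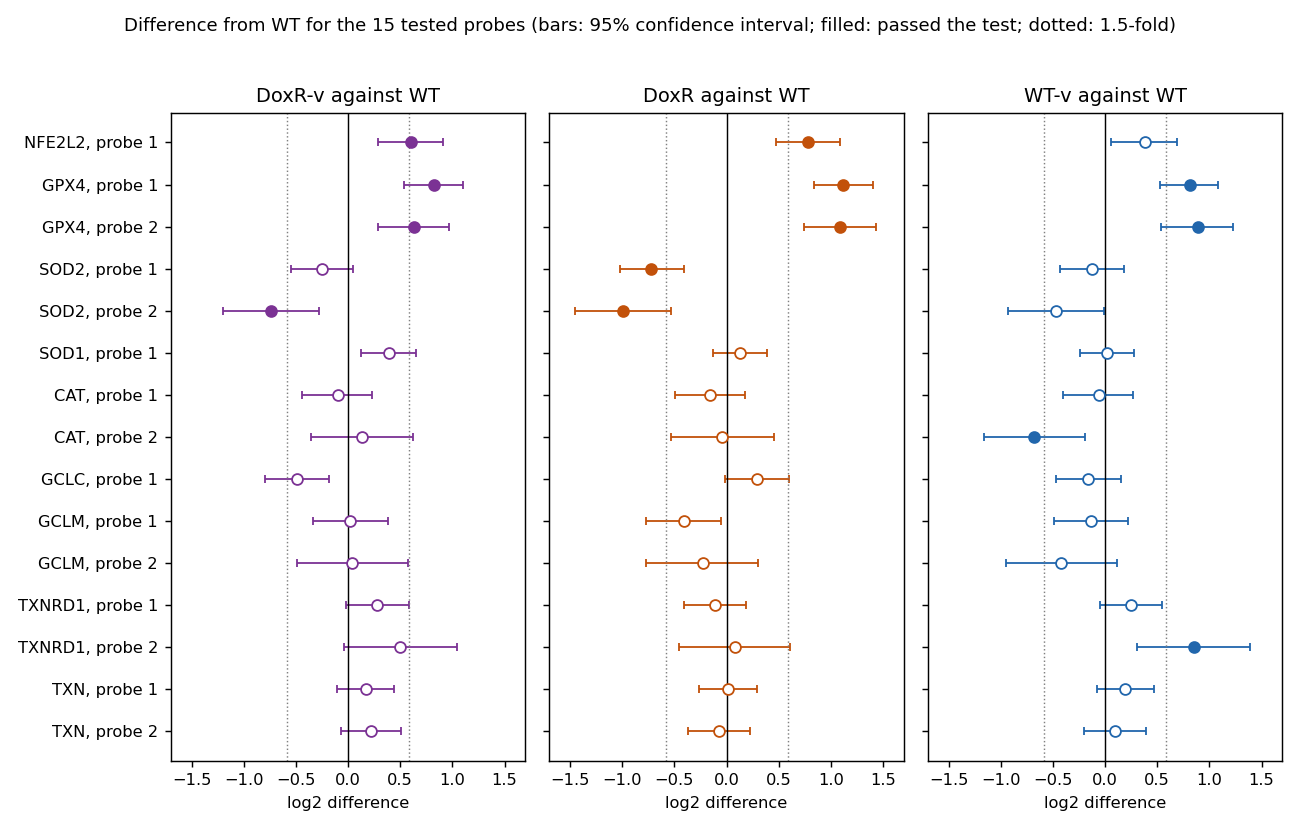
Log2 difference from WT (x axis) of the 15 tested probes of the 9 genes (y axis) in DoxR-v, DoxR and WT-v cells, with 95% confidence intervals; filled points passed the test and dotted lines mark 1.5-fold. Both GPX4 probes are filled in all 3 panels, and the other filled points are those of NFE2L2, SOD2, CAT probe 2 and TXNRD1 probe 2.

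Among 12137 other genes, the 3 whose differences from WT in DoxR, DoxR-v and WT-v cells lay nearest to those of GPX4 were RERE, TADA3 and ACAP3. RERE differed from WT by 1.14 in DoxR, 0.80 in DoxR-v and 0.85 in WT-v cells, TADA3 by 1.13, 0.77 and 0.76, and ACAP3 by 1.09, 0.86 and 0.86. The largest deviation from GPX4 over the 3 differences was 0.045, 0.05 and 0.057 for these genes, and 48 genes lay within 0.2. The 3 differences share the WT arrays.

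GPX4 is a selenoprotein, as is TXNRD1, and all 8 listed genes of selenoprotein synthesis were measured. In DoxR cells 3 were higher and 1 lower than in WT, in DoxR-v cells 3 and 0, and in WT-v cells 1 and 0, with median differences of 0.13, 0.21 and 0.32. The share called was 50%, 37.5% and 12.5% in this order, beside 33.7%, 25.9% and 27.1% of all genes. SEPSECS, which makes selenocysteine on its transfer RNA, was below background in WT cells and at least 1.77-fold higher in DoxR cells (adjusted p = 0.000247; SEPSECS was at 0.42 with the deposited values and 0.57 without background correction, and not called). It was also called higher in DoxR-v than in WT cells (adjusted p = 0.0153). SCLY, selenocysteine lyase, rose by 0.88 in DoxR cells (adjusted p = 0.000512; SCLY was at 0.55 and not called with the deposited values) and by 0.98 in WT-v cells (adjusted p = 0.000423). In DoxR-v cells SCLY rose by 0.59 (adjusted p = 0.0103), at the fold limit. SEPHS1, of the selenophosphate synthetase family, rose by 0.62 in DoxR cells (adjusted p = 0.00246), a SEPHS1 call lost without WT replicate 2 (0.53) or DoxR replicate 1 (0.58). PSTK, the kinase that acts before SEPSECS, rose by 0.95 in DoxR-v cells (adjusted p = 0.00285), and with the deposited values PSTK was at 0.51 and not called.

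SOD2, the superoxide dismutase of mitochondria, was read by a bright probe (ILMN_2336781) at 9.35, 9.40 and 9.26 in DoxR-v cells, 8.77, 8.93 and 8.91 in DoxR cells, 9.61, 9.46 and 9.31 in WT-v cells, and 9.50, 9.81 and 9.46 in WT cells. DoxR arrays were below every other array. DoxR-v arrays were below the WT arrays by a narrow margin, and WT-v and WT arrays overlapped. SOD2 fell by 0.72 in DoxR cells (adjusted p = 0.00133), and its difference from WT was -0.25 in DoxR-v cells (adjusted p = 0.208) and -0.13 in WT-v cells (adjusted p = 0.529). Between DoxR-v and DoxR cells it was 0.47 (adjusted p = 0.0217), below the fold limit.

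With median scaling SOD2 in DoxR cells was at -0.44 (adjusted p = 0.0865) and not called, and since GCLC was called higher there, the split in DoxR cells was 3 higher and 0 lower instead of 2 and 1. That scaling moved the median difference of all genes from WT to 0.18 in DoxR, 0.23 in DoxR-v and 0.24 in WT-v cells, so that SOD2 still lay below it and the differences of GCLC and NFE2L2 above it. A second SOD2 probe (ILMN_2406501) was at 6.28, 5.87 and 6.51 in DoxR-v cells, 6.19, 5.91 and 5.82 in DoxR cells, 6.63, 6.59 and 6.25 in WT-v cells, and 6.83, 7.38 and 6.68 in WT cells. On this probe all 3 other groups were below the WT arrays. It changed by -0.99 in DoxR cells (adjusted p = 0.0025) and by -0.74 in DoxR-v cells (adjusted p = 0.019), so that the probes differ in whether SOD2 was called in DoxR-v cells. Both calls on the second probe of SOD2 were lost with the deposited values (-0.39 and -0.31) and without background correction (-0.50 and -0.39). That in DoxR-v cells was also lost with an offset of 50 (SOD2 second probe at -0.55), with median scaling (-0.39) and without WT replicate 2 (-0.53) or DoxR-v replicate 2 (-0.57). The remaining SOD2 probe was detected on no array.

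SOD1, the dismutase of the cytosol (ILMN_1662438), was at 14.09, 14.14 and 14.20 in DoxR-v cells, 13.81, 13.95 and 13.89 in DoxR cells, 13.84, 13.82 and 13.66 in WT-v cells, and 13.70, 13.72 and 13.85 in WT cells. DoxR-v arrays were above every other array, and the other 3 groups overlapped. SOD1 passed no comparison by fold: the difference of DoxR-v cells was 0.39 from WT (adjusted p = 0.0302), 0.37 from WT-v (adjusted p = 0.0379) and 0.26 from DoxR cells (adjusted p = 0.132).

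CAT, catalase, overlapped between all groups on its brightest probe (ILMN_1651705), at 8.06 to 8.63 in DoxR-v, 8.20 to 8.38 in DoxR, 8.34 to 8.42 in WT-v and 8.29 to 8.60 in WT cells. Its differences from WT were -0.10, -0.16 and -0.06, with intervals of -0.44 to 0.23 in DoxR-v, -0.49 to 0.18 in DoxR and -0.40 to 0.27 in WT-v cells. A second CAT probe (ILMN_2151739) was at 7.93, 7.60 and 8.31 in DoxR-v cells, 7.57, 7.75 and 8.01 in DoxR cells, 6.78, 7.65 and 6.99 in WT-v cells, and 7.82, 7.85 and 7.78 in WT cells. WT-v arrays were below the WT arrays on this probe, with replicate 2 apart from the others. It changed by -0.68 in WT-v cells (adjusted p = 0.0371), a call that the brightest CAT probe did not share and that was lost with the deposited values (-0.37), with median scaling (-0.28) and without WT-v replicate 1 (-0.49) or WT-v replicate 3 (-0.60). It was lost too without background correction (CAT second probe at -0.44) and with an offset of 50 (-0.56). On the second probe CAT was also higher in DoxR-v than in WT-v cells, by 0.81 (adjusted p = 0.0168), although 1 WT-v array overlapped the DoxR-v arrays. This call of CAT was lost with the deposited values (0.46) and without background correction (0.54).

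Of 8 other dismutases and peroxidases, 5 were measured, and 3 were lower than WT in DoxR cells, 1 higher and 1 lower in DoxR-v cells, and 1 lower in WT-v cells. Their median difference from WT was -0.73 in DoxR (-0.30 with PXDN at its bound), 0.05 in DoxR-v and -0.31 in WT-v cells. The share called was 60%, 40% and 20% in this order, beside 33.7%, 25.9% and 27.1% of all genes. GPX3, a secreted glutathione peroxidase, had log2 signals of 8.72, 8.85 and 8.95 in DoxR-v cells, 5.85, 5.69 and 5.46 in DoxR cells, 6.66, 6.91 and 6.76 in WT-v cells, and 8.11, 8.24 and 7.98 in WT cells. The 4 groups did not overlap, with DoxR-v highest and DoxR lowest, and GPX3 was detected on 2 of the 3 DoxR arrays. GPX3 fell by 2.45 in DoxR cells (adjusted p = 4.4e-08) and by 1.33 in WT-v cells (adjusted p = 2.92e-05), and rose by 0.72 in DoxR-v cells (adjusted p = 0.00241). Relative to DoxR cells it rose in DoxR-v cells by 3.17 (adjusted p = 3.58e-09). The GPX3 call in DoxR-v cells against WT was lost with the deposited values (0.52) and without background correction (0.58).

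CCS, the chaperone that loads copper into SOD1, fell by 1.21 in DoxR cells (adjusted p = 0.000835), and a second probe changed by -1.16. In DoxR-v cells CCS changed by -0.80 (adjusted p = 0.0169), which did not pass with the deposited values (-0.45), without background correction (-0.54) and with median scaling (-0.42). PXDN, a peroxidase of the extracellular matrix, was below background in DoxR cells and detected on 1 WT array, and was at least 1.23-fold lower in DoxR cells (adjusted p = 0.0425; PXDN was at -0.19 and not called with the deposited values).

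TXNRD1, the thioredoxin reductase of the cytosol, was at 10.59, 10.41 and 10.33 in DoxR-v cells, 10.01, 10.06 and 10.09 in DoxR cells, 10.39, 10.30 and 10.55 in WT-v cells, and 9.94, 10.26 and 10.29 in WT cells on its brightest probe (ILMN_1717056). The arrays of both groups given vorinostat were above the DoxR and WT arrays, by a narrow margin for WT. TXNRD1 passed no comparison on this probe: the difference from WT was 0.28 in DoxR-v (adjusted p = 0.157), -0.11 in DoxR and 0.25 in WT-v cells (adjusted p = 0.194), and that between DoxR-v and DoxR cells was 0.39 (adjusted p = 0.0494), below the fold limit. A second probe (ILMN_2324421), which the annotation gives to another transcript variant, was at 10.24, 10.28 and 9.71 in DoxR-v cells, 9.74, 9.71 and 9.52 in DoxR cells, 10.77, 9.88 and 10.63 in WT-v cells, and 9.41, 9.31 and 10.02 in WT cells. On it TXNRD1 rose by 0.85 in WT-v cells (adjusted p = 0.0203), although WT-v and WT arrays overlapped. The second probe of TXNRD1 was also called in DoxR-v cells with median scaling (0.82) and without WT replicate 3 (0.72) or DoxR-v replicate 3 (0.68), against 0.50 (adjusted p = 0.155) with all arrays.

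TXN, thioredoxin, the protein that TXNRD1 keeps reduced, differed little on either probe. The brightest (ILMN_2038776) was at 13.70 to 13.94 in DoxR-v, 13.64 to 13.76 in DoxR, 13.78 to 14.01 in WT-v and 13.62 to 13.73 in WT cells, and its differences from WT were 0.17, 0.01 and 0.19, with intervals of -0.11 to 0.44 in DoxR-v, -0.26 to 0.29 in DoxR and -0.08 to 0.47 in WT-v cells. The second probe (ILMN_1680314) differed from WT by 0.22, -0.07 and 0.09 in the same groups, with adjusted p values of 0.252, 0.708 and 0.642.

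**Figure D3:**
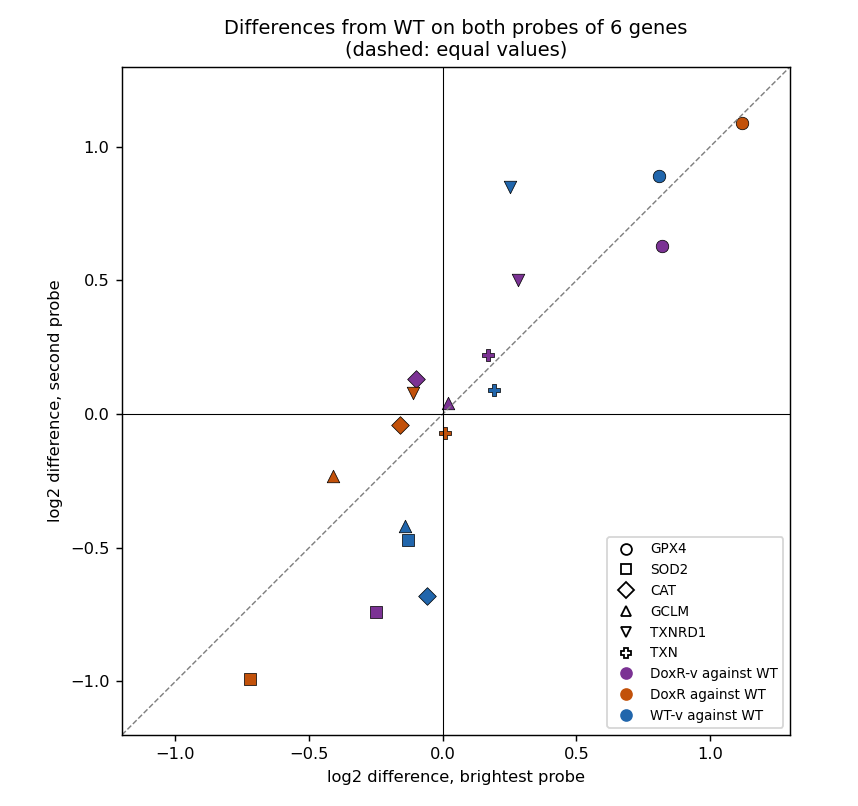
Log2 difference from WT on the brightest probe (x axis) and on the second tested probe (y axis) of 6 genes, in DoxR-v, DoxR and WT-v cells; each point is a gene in a comparison and the dashed line marks equal values. GPX4 and SOD2 in DoxR cells lie near 1.12 and 1.09 and at -0.72 and -0.99, while CAT (-0.06 and -0.68) and TXNRD1 (0.25 and 0.85) in WT-v cells lie far from the line.

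Other genes of the thioredoxin, peroxiredoxin and glutaredoxin system were measured for 18 of 22. In DoxR cells 2 were higher and 7 lower than in WT, in DoxR-v cells 2 and 4, and in WT-v cells 0 and 7. Their median difference from WT was -0.30 in DoxR, -0.05 in DoxR-v and -0.28 in WT-v cells. The share called was 50%, 33.3% and 38.9% in this order, beside 33.7%, 25.9% and 27.1% of all genes. TXN2, the thioredoxin of mitochondria, was at 7.73, 8.17 and 8.26 in DoxR-v cells, 6.63, 7.11 and 6.74 in DoxR cells, 7.36, 7.82 and 7.27 in WT-v cells, and 8.10, 8.29 and 8.13 in WT cells. DoxR arrays were the lowest, and DoxR-v and WT arrays overlapped. TXN2 fell by 1.35 in DoxR cells (adjusted p = 0.000116) and rose in DoxR-v relative to DoxR cells by 1.22 (adjusted p = 0.000289). It was also called lower than WT in WT-v cells (-0.69, adjusted p = 0.015).

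MSRB1, a methionine sulfoxide reductase and a selenoprotein, fell by 1.23 in DoxR cells (adjusted p = 1.27e-05). SESN3, a sestrin, was below background in DoxR cells and at least 2.18-fold lower than in WT (adjusted p = 4.1e-05; SESN3 was at -0.38 and not called with the deposited values). SESN1, another sestrin, fell by 1.74 in DoxR-v cells (adjusted p = 2.58e-06). It was also called lower in WT-v cells (-1.31, adjusted p = 3.73e-05) and in DoxR cells (-0.67, adjusted p = 0.00289). PRDX4, the peroxiredoxin of the endoplasmic reticulum, changed by -0.86 in DoxR-v cells (adjusted p = 0.000324) and by -0.93 in WT-v cells (adjusted p = 2e-04). MSRA, also a methionine sulfoxide reductase, was below background in DoxR-v and WT-v cells, at least 2.06-fold and at least 2.27-fold lower than in WT (adjusted p = 8.89e-06 and 7.45e-06), and with the deposited values MSRA was at -0.51 and -0.52 and not called.

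GLRX, glutaredoxin, averaged 10.21 ± 0.20 in DoxR-v cells, 9.87 ± 0.06 in DoxR cells, 7.81 ± 0.32 in WT-v cells and 10.79 ± 0.19 in WT cells (SD, n = 3). WT-v arrays were far below the rest. GLRX fell by 2.98 in WT-v cells (adjusted p = 1.45e-07), and MSRB2, a mitochondrial methionine sulfoxide reductase, fell by 1.55 there (adjusted p = 5.12e-05). GLRX was also called lower than WT in DoxR cells (-0.92, adjusted p = 0.00115). GLRX was higher in DoxR-v cells, by 2.40 relative to WT-v cells (adjusted p = 7.69e-07).

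**Figure D4:**
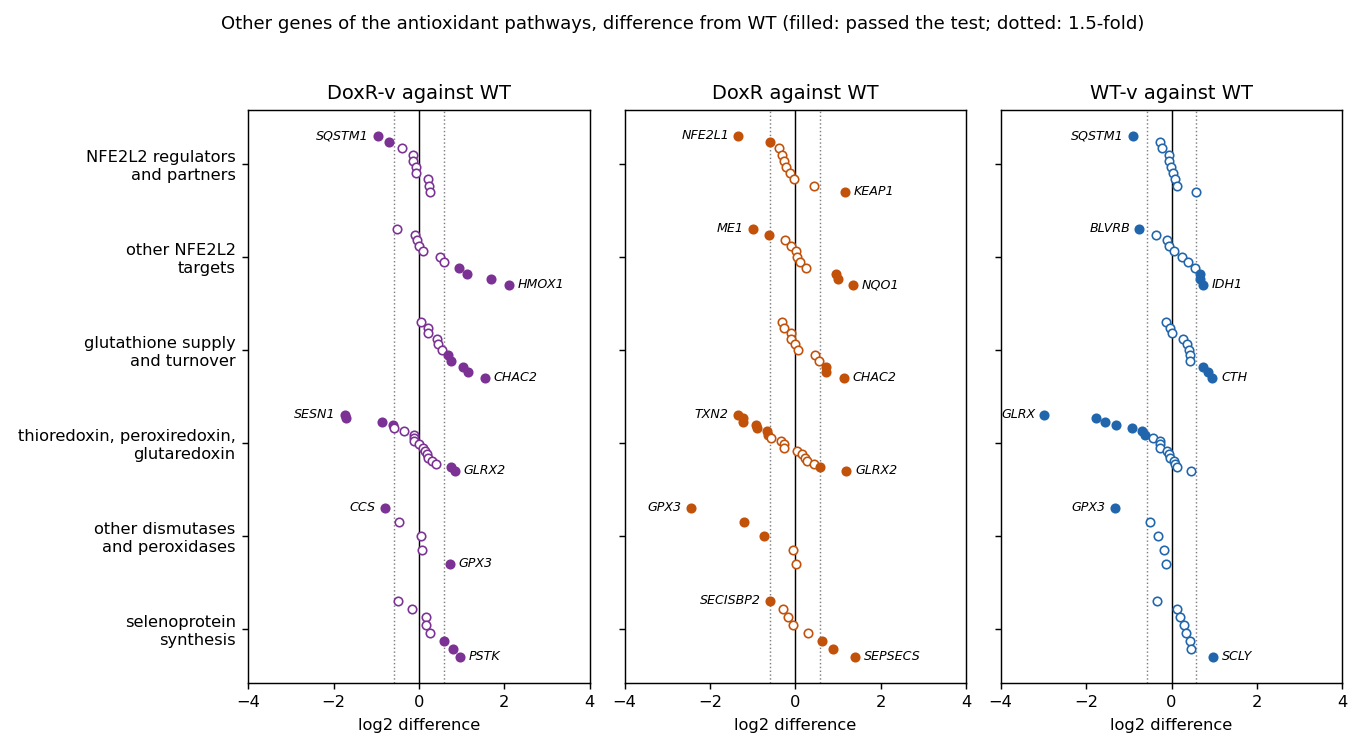
Log2 difference from WT (x axis) of the 63 measured genes of 6 pathway lists (y axis) in DoxR-v, DoxR and WT-v cells; filled points passed the test, dotted lines mark 1.5-fold, and the lowest and highest called gene of a list is named. Genes below background in a group are drawn at their fitted value, which is not a bound. GLRX in WT-v cells (-2.98) and GPX3 in DoxR cells (-2.45) lie farthest to the left.

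Over the 6 lists, 63 of 77 genes were measured, and 12 were higher and 15 lower than WT in DoxR cells, or 42.9% called beside 33.7% of all genes. In DoxR-v cells 15 were higher and 7 lower (34.9% called beside 25.9%), and in WT-v cells 7 and 10 (27% beside 27.1%). Between DoxR-v and DoxR cells 13 were higher and 7 lower (31.7% beside 29.1%), and between DoxR-v and WT-v cells 13 and 4 (27% beside 25.4%). In these 5 comparisons, in the same order, 5, 4, 4, 5 and 2 of the called genes had 1 group below background. Their folds are known only as bounds, some of them below the fold limit, as for PXDN in DoxR cells (at least 1.23-fold).

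To ask whether vorinostat went with the same change in both settings, DoxR-v minus DoxR was set against WT-v minus WT in 1 contrast. The difference with vorinostat was lower in the resistant than in the wild type cells for GPX4 and GCLC and higher for SOD2. These were 3 of 9 genes called, beside 42.4% of all genes. The difference between the contrasts was -1.11 ± 0.18 for GPX4 (SE; limma, adjusted p = 0.000469), since GPX4 was higher in WT-v than in WT cells and differed by -0.30 between DoxR-v and DoxR cells. A second GPX4 probe gave -1.34 (adjusted p = 0.000564). For GCLC it was -0.62 ± 0.20 (adjusted p = 0.0299) and for SOD2 0.59 ± 0.20 (adjusted p = 0.0335).

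The calls of GCLC and SOD2 in this contrast lay near the fold limit and were lost with the deposited values (GCLC -0.42, SOD2 0.49), without background correction (-0.48 and 0.52) and with an offset of 50 (-0.55 and 0.56). The GCLC call was also lost without WT replicate 1 (-0.54), WT replicate 2 (-0.57), WT-v replicate 2 (-0.54), DoxR replicate 2 (-0.58) or DoxR-v replicate 2 (-0.55). The SOD2 call was lost with median scaling (0.33) and without WT replicate 2 (0.48), WT-v replicate 3 (0.52), DoxR replicate 1 (0.54) or DoxR-v replicate 2 (0.56). The GPX4 call in this contrast held under all alternatives tried. NFE2L2 was at -0.56 (adjusted p = 0.0494) and GCLM at 0.56 (adjusted p = 0.0781), both below the fold limit. With median scaling NFE2L2 was called lower in this contrast (-0.81, adjusted p = 0.0533), so that the split was 0 higher and 3 lower instead of 1 and 2, and the median of all genes was at -0.22 there. NFE2L2 was also called without WT replicate 3 (-0.68), WT-v replicate 3 (-0.62) or DoxR-v replicate 1 (-0.60). GCLM was called higher with the mean of its probes (0.63) and without WT replicate 1 (0.71), WT-v replicate 3 (0.63) or DoxR replicate 1 (0.64). SOD1, CAT on its brightest probe, TXN and TXNRD1 had adjusted p values of 0.316, 0.723, 0.887 and 0.628.

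**Figure D5:**
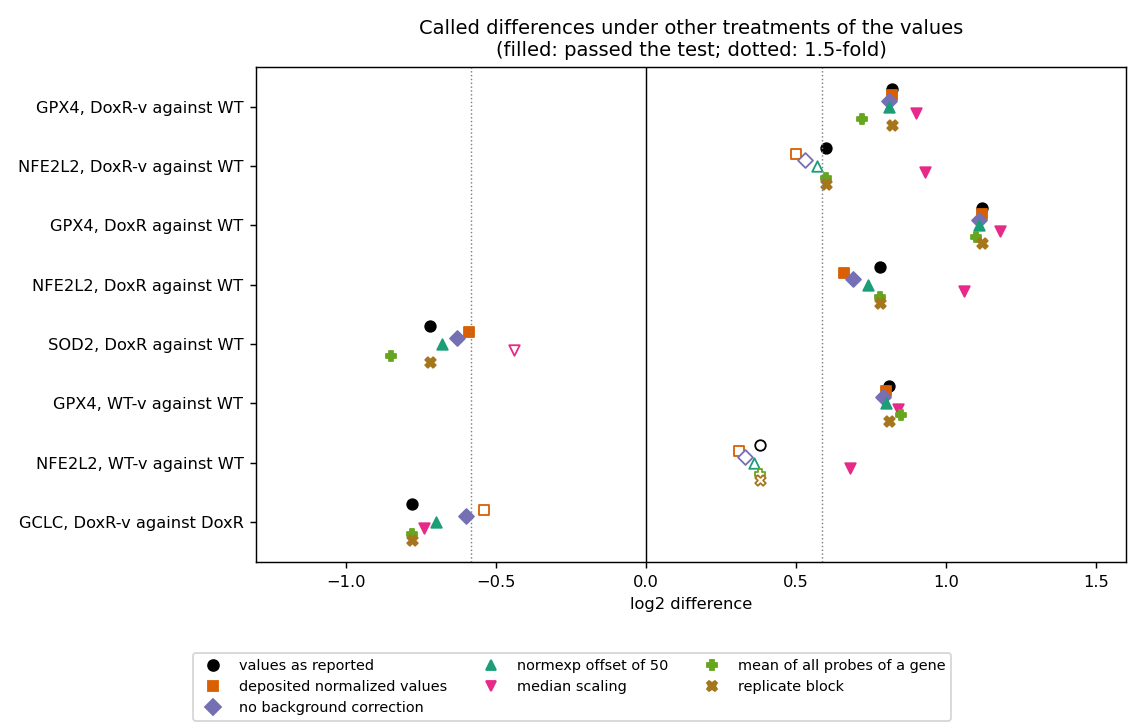
Log2 difference (x axis) of the called genes in their comparisons (y axis) with the values as reported and under 6 other treatments of the values. NFE2L2 in WT-v cells is drawn too, although it was not called with the values as reported. Filled symbols passed the test and dotted lines mark 1.5-fold. GPX4 is filled throughout, NFE2L2 in DoxR-v cells lies at the fold limit (0.50 to 0.93), and SOD2 in DoxR cells is open with median scaling (-0.44).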

How the data were processed

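SK-N-Be(2)C cells were measured on Illumina HumanHT-12 v4 BeadChips, 3 arrays in each of 4 groups. The deposited file gives a probe intensity per array, summarised from beads and not normalized by the authors, and per the file headers a detection p-value beside each signal. The software for the bead summary is not given in the sources used here. The authors also deposited intensities on a linear scale after their own quantile normalization, which served as an alternative after log2. Tools named in the submitters' notes are lumi 2.13.3 and R 3.0.1.

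Signals were corrected with normexp (offset 16, with parameters that limma takes from the detection p-values), then quantile normalized, then log2 transformed. The filter of the study was used: a probe stayed if 1 or more arrays had a detection p-value under 0.01, which left 21730 of 47323. Of all probes 30113 carried 1 gene symbol, 8 several and 17202 none, and 30074 were matched to RefSeq by Entrez identifier. A gene took its brightest probe. One limma model (limma 3.58.1, R 4.3.3) was fitted to the 12 arrays with 1 mean per group, and p-values were adjusted over all probes tested (Benjamini-Hochberg). The procedure was tested on simulated data. The number of arrays limits the precision, and no slide or scan information was used. No 2 arrays held identical signals.

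The 10 genes and the pathway and marker lists were chosen with earlier results of these data known. All 10 genes are named. Of the pathway genes, the rule allows up to 3 called genes with the largest change in each list and comparison, with exceptions named beside them, and for the gene with the largest difference from WT the 3 genes of nearest profile.

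Alternatives were the deposited values, no background correction, an offset of 50, median scaling, dropping the detection filter or asking for 3 arrays, fitting the compared groups alone, the replicate number as a block, averaging the probes of a gene, limits of 0.05 on the adjusted p or 2 on the fold, and leaving out each array. Where a group was below background on all arrays, its level was replaced on each array by the higher of its own signal and the lowest detected signal before the fold was computed.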

Additional observations from a re-analysis of the deposited data

Results flagged for a closer look

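The change with vorinostat in resistant cells, less the change with vorinostat in wild type cells, passed the test in limma for probes of GPX4, GCLC, SOD2 and CAT. GPX4 had -1.11 on its brightest probe and -1.34 on the second, and GCLC had -0.62. SOD2 had 0.59 on its brightest probe and 0.72 on the second (adjusted p = 0.0809). CAT had 0.85 on its second probe (adjusted p = 0.056), while its brightest probe had 0.11 (adjusted p = 0.723), so that the CAT probes differ. The second SOD2 probe was not called with median scaling (0.38), an offset of 50 (0.53), no background correction (0.38) or the deposited values (0.29), without the detection filter (adjusted p = 0.136), or when any of WT replicate 2, WT-v replicate 3, DoxR replicates 2 and 3 and DoxR-v replicates 1 and 3 was left out (0.51 to 0.69). CAT on its second probe was not called with the deposited values (0.48), without background correction (0.57) or with median scaling (0.47), and neither was it without WT-v replicate 1 (0.67), WT-v replicate 3 (0.77), DoxR replicate 1 (0.74) or DoxR-v replicate 3 (0.67). The separate selection of the DoxR and DoxR-v lines and vorinostat cannot be told apart in this contrast.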

How the results depend on the processing

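No call of the 10 genes or of the named pathway genes changed direction under an alternative. For the brightest probes, 561 of 585 values under the alternatives and 630 of 648 values with 1 array left out kept their side of the threshold, and for the second probes 315 of 348 and 408 of 432. Most of the values kept were not called with the values as reported. Among the brightest probes 20 calls were lost and 4 gained under the alternatives, and 12 lost and 6 gained with 1 array left out. Second probes lost 32 and gained 1 under the alternatives, and lost 16 and gained 8 with 1 array left out. In DoxR cells the count of called genes relative to WT stayed at 3 of 9 with the deposited values, without background correction and with an offset of 50. Of all genes 16.2%, 19.4% and 25.9% were called there instead of 33.7%, so that the count lay above this share. Without the detection filter it was 3 of 10 in DoxR and 2 of 10 in DoxR-v cells, beside 20.1% and 15.3%. Relative to WT, the count of called genes in DoxR-v cells was 1 of 9 instead of 2 with the deposited values, without background correction and with an offset of 50, where 10.8%, 13.6% and 18.5% of all genes were called instead of 25.9%. Between DoxR-v and DoxR cells it was 0 instead of 1 with the deposited values (14.4% of all genes instead of 29.1%), and in WT-v cells it was 2 instead of 1 with median scaling (34.1% instead of 27.1%). In the difference between the vorinostat contrasts it was 1 instead of 3 with the deposited values, without background correction and with an offset of 50, beside 24.2%, 28.7% and 36% of all genes instead of 42.4%. With a fold over 2 it was 1 in DoxR, 0 in DoxR-v and 0 in WT-v cells, 0 between DoxR-v and DoxR cells and 1 in the difference between contrasts, beside 14.7%, 8.84%, 9.31%, 12.2% and 23.1% of all genes, so that the share called fell over all genes too. The cause was not tested. With 1 array left out the count was 3 to 3 in DoxR, 1 to 2 in DoxR-v and 1 to 1 in WT-v cells against WT, 1 to 1 between DoxR-v and DoxR, 0 to 0 between DoxR-v and WT-v, and 1 to 4 in the difference between contrasts. With the replicate number as a block the counts were 3, 2, 1, 1, 0 and 3 in this order, as without it, and a second SOD2 probe was lost in the last (adjusted p = 0.106). The numbers did not pair the arrays, since deviations of same-numbered arrays correlated at -0.27 to 0.11 over 18 pairs and 1 of 12 arrays was closest to its own number. Signal over background limits SLC7A11, the second GCLM probe and the pathway genes given as bounds.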
